A study of Mus musculus with 8 samples.

Results

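The genes of MHC class II presentation were examined in gastrocnemius, the large muscle of the calf, from mice. The 7 genes were Cd74, H2-Aa, H2-Ab1, H2-Eb1, H2-DMa, H2-DMb1 and Ciita, chosen by symbol among the 35949 genes of the deposited table of raw counts. All 7 of 7 were present, and all 7 had enough counts to be tested. Per the series' design text, the mice were aged and had received blood-forming stem cells that were either controls or overexpressed SIRT3, a deacetylase of mitochondria. The labels give 4 libraries the genotype WT and 4 the genotype T3TG, taken to be the control arm and the SIRT3 arm. The labels' titles begin with Mx1 for the WT libraries and with T3 for the T3TG libraries, without an explanation. The sources used here do not give the strain, age in months, sex, transgene promoter, donor chimerism or number of mice, and whether the libraries of a group are from different mice is not stated. P-values therefore measure the spread between these samples, which may be technical.

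Class II molecules show peptides from engulfed or endosomal protein to CD4 T cells. An α chain and a β chain assemble in the endoplasmic reticulum around the invariant chain, encoded by Cd74, which fills the groove and steers the complex to endosomes. There, proteases such as cathepsin S trim the invariant chain to a short remnant, and the DM heterodimer, made of H2-DMa and H2-DMb1, exchanges that remnant for other peptides. The genes are transcribed where Ciita, the class II transactivator, is present. It binds no DNA itself and sits on a complex assembled on the X and Y boxes of each promoter. In muscle, dendritic cells, macrophages and B cells carry class II at rest, and interferon gamma can induce it in other cells through Ciita.

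Of the 7 genes, 5 lie in the MHC region of chromosome 17 (GENCODE release M21, mm10 build, 1-based positions). They are H2-DMa at chr17:34119541-34139101, H2-DMb1 at chr17:34153072-34160230, H2-Ab1 at chr17:34257689-34269419, H2-Aa at chr17:34282744-34287823 and H2-Eb1 at chr17:34305867-34316674. H2-Aa is on the minus strand and the other 4 are on the plus strand. Cd74 lies at chr18:60803848-60812652 and Ciita at chr16:10480059-10528418, both on the plus strand. H2-DMa overlaps Brd2, a chromatin reader gene on the other strand, but 0 bases of its principal transcript lie in exons of Brd2. Of the principal transcript of Ciita, 111 bases lie in exons of Dexi on the other strand. The strand setting of the counting is not given, so reads there can be shared.

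The X and Y boxes that carry the Ciita complex can be read in the promoters of 3 of the 4 members that have an entry in the RefSeq table (GRCm38.p6 build, windows of 300 bases that end 50 bases after a start). The stretches below are shown because they hold the boxes on which Ciita is known to act. Capitals mark a core of the X box, searched as CTNGNAAC, and the inverted CCAAT core of the Y box, searched as GATTGG. These letters were chosen after the members' promoters had been seen, and both strands were searched.

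H2-Aa, minus strand, chr17:34287855-34287919: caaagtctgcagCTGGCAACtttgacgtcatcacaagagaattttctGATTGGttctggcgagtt
H2-Eb1, plus strand, chr17:34305761-34305824: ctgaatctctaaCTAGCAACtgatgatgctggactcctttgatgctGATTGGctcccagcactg
H2-DMb1, plus strand, chr17:34153094-34153123, X core only: CTAGTAACtgatgatgctaggctgattcac

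The X core lay 84, 94 and 97 bases before the RefSeq start in H2-Aa, H2-Eb1 and H2-DMb1, and 27, 26 and 27 bases separated it from the Y core. Of 32851 promoters of the same length, 13.2% held the X core, 16.1% held the Y core, and 0.134% (44) held both on 1 strand with 10 to 40 bases between them. For H2-DMb1 the GENCODE gene begins upstream of the RefSeq start, so its X core lies inside the GENCODE gene. The 2 promoter windows of H2-DMa did not hold this pair of letters. Cd74, H2-Ab1 and Ciita are named only.

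Library totals were 16.2 to 21.5 M counts in WT and 16.8 to 28.1 M in T3TG. In T3TG replicates 2 and 3, 97.5% and 98.0% of the values from 10 to 99 were even numbers, against 50.5% to 52.5% in the other 6 libraries, for a reason that was not tested. They belong to 1 group, and results are therefore also given without them. Skeletal muscle markers were abundant, with 12 of 12 tested and Acta1, skeletal actin, at 32700 ± 1290 CPM in WT libraries and 32500 ± 4500 CPM in T3TG libraries (SD, n = 4 each). Sirt3 itself stood at 18.9 ± 2.49 CPM in the WT libraries and at 17.7 ± 2.50 CPM in the T3TG libraries (SD, n = 4 each), with a log2 fold change of -0.09 (SE 0.13, adjusted p = 0.881, edgeR's quasi-likelihood test). The muscle tissue is not the transplanted tissue, and 566 bases of the principal Sirt3 transcript lie in exons of the neighbouring genes Ric8a and Psmd13. This level therefore does not check the labels.

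All 7 class II genes had a higher fitted level in T3TG than in WT, and 0 of 7 passed the test. Their median log2 fold change was 0.31, beside -0.004 over the 14064 genes tested, of which 49.1% were higher. Over all genes, edgeR's quasi-likelihood test with Benjamini-Hochberg adjustment called 10 genes, 0.0711% of those tested, all of them higher in T3TG. The adjusted p of the 7 genes ran from 0.445 for H2-DMa to 0.921 for H2-DMb1. At an unadjusted p under 0.05, 1 of 7 was higher and 0 were lower, against 5.88% and 2.45% of all genes, and DESeq2 also called 0 of 7. The WT and T3TG libraries were without overlap for 0 of 7, against 4.78% of all genes. Without T3TG replicate 3, the median log2 fold change was 0.09. Without WT replicate 2 it was 0.63, and without T3TG replicates 2 and 3 it was 0.08. In that last setting the 7 genes ran from 0.01 for H2-DMb1 to 0.29 for H2-DMa. Of the 21 pairs of these genes, 16 correlated across the libraries by Pearson r and 8 by Spearman rho (adjusted exact permutation p under 0.05), so their 7 directions are not 7 separate observations. In whole tissue, more cells of a type and more RNA per cell cannot be told apart.

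Among the chains that form the peptide groove, H2-Ab1, the β chain of I-A, stood at 35.8, 70.9, 30.8 and 34.9 CPM in WT replicates 1 to 4 and at 50.3, 46.5, 75.3 and 39.9 CPM in T3TG replicates 1 to 4. CPM is counts scaled to the library size, with TMM factors. WT replicate 2 stood close to the highest T3TG library, the other 3 WT libraries lay below every T3TG library, and the groups overlap. The log2 fold change was 0.30 (SE 0.33, 95% interval -0.49 to 1.10, adjusted p = 0.859 by edgeR), with 0.08 without T3TG replicate 3, 0.65 without WT replicate 2 and 0.07 without T3TG replicates 2 and 3.

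H2-Aa, the α chain that pairs with H2-Ab1, stood at 37.9, 63.5, 32.6 and 29.5 CPM in WT libraries and at 49.0, 47.1, 80.3 and 37.5 CPM in T3TG libraries. The pattern over the libraries was that of its partner, except that WT replicate 1 lay just above T3TG replicate 4. The log2 fold change was 0.40 (SE 0.33, interval -0.40 to 1.19, adjusted p = 0.807 by edgeR), with 0.13 without T3TG replicate 3 and 0.69 without WT replicate 2. H2-Eb1, the β chain of I-E, stood at 36.1, 63.3, 24.7 and 34.3 CPM in WT libraries and at 48.7, 40.1, 72.6 and 34.5 CPM in T3TG libraries. WT replicate 2 was again the second highest library. Its log2 fold change was 0.31 (SE 0.36, interval -0.55 to 1.17, adjusted p = 0.863 by edgeR), with 0.06 without T3TG replicate 3 and 0.63 without WT replicate 2. The α chain of I-E has only a pseudogene entry in the table, H2-Ea-ps, at 0 counts in all 8 libraries.

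Cd74, the invariant chain, was the most abundant of the 7. It stood at 83.5, 135.5, 70.6 and 75.0 CPM in WT libraries and at 104.8, 102.2, 165.5 and 93.8 CPM in T3TG libraries, or 1118 to 4556 counts. WT replicate 2 lay above 3 of the T3TG libraries, and the remaining 3 WT libraries lay below all 4. The means were 91.2 ± 30.1 and 116.6 ± 32.9 CPM (SD, n = 4 each), a log2 fold change of 0.36 (SE 0.27, interval -0.29 to 1.0, adjusted p = 0.780 by edgeR). It was 0.14 without T3TG replicate 3 and 0.61 without WT replicate 2. The two-sided exact permutation p was 0.257, where the smallest p this design allows is 0.0286. The 95% interval of the fold runs from 0.82 to 2.0, so a lower level and a 2-fold higher level both lie within it.

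Of the subunits of the DM peptide editor, H2-DMa stood at 3.67, 4.71, 4.67 and 3.90 CPM in WT libraries and at 5.67, 5.59, 10.6 and 4.65 CPM in T3TG libraries. T3TG replicates 1 to 3 lay above every WT library, and T3TG replicate 4 lay below WT replicates 2 and 3, so the groups overlap. The log2 fold change of 0.66 (SE 0.24, interval 0.15 to 1.17) had an unadjusted p of 0.0145 in edgeR's test and an adjusted p of 0.445, and it did not pass. The exact permutation p was 0.0857. Without T3TG replicate 3 the log2 fold change was 0.33 (adjusted p = 0.761 by edgeR), and without T3TG replicates 2 and 3 it was 0.29. Brd2, which overlaps H2-DMa on the other strand, had a log2 fold change of 0.09 (SE 0.09).

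H2-DMb1, the partner subunit, stood at 3.05, 4.77, 3.41 and 3.09 CPM in WT libraries and at 3.98, 2.62, 5.88 and 3.20 CPM in T3TG libraries. T3TG held both the highest and the lowest library. Its log2 fold change was 0.15 (SE 0.26, adjusted p = 0.921 by edgeR) and turned to -0.12 without T3TG replicate 3. The near copy H2-DMb2 had only 2 to 20 counts a library and was below the filter. The principal transcripts of the 2 genes share 88.8% of their aligned bases and 27.2% of their stretches of 50 bases, so reads of one can have been counted for the other or dropped.

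Ciita, the transactivator, had the lowest level, with 12 to 70 counts a library. It stood at 2.48, 2.47, 0.758 and 1.38 CPM in WT libraries and at 2.16, 1.94, 2.54 and 1.57 CPM in T3TG libraries. The WT libraries spanned nearly the whole range, with WT replicates 1 and 2 close to the highest T3TG library and WT replicate 3 far below all. The log2 fold change was 0.22 (SE 0.35, interval -0.53 to 0.97, adjusted p = 0.910 by edgeR). It was -0.02 without WT replicate 3 and 0.42 without WT replicate 1.

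**Figure D1:**
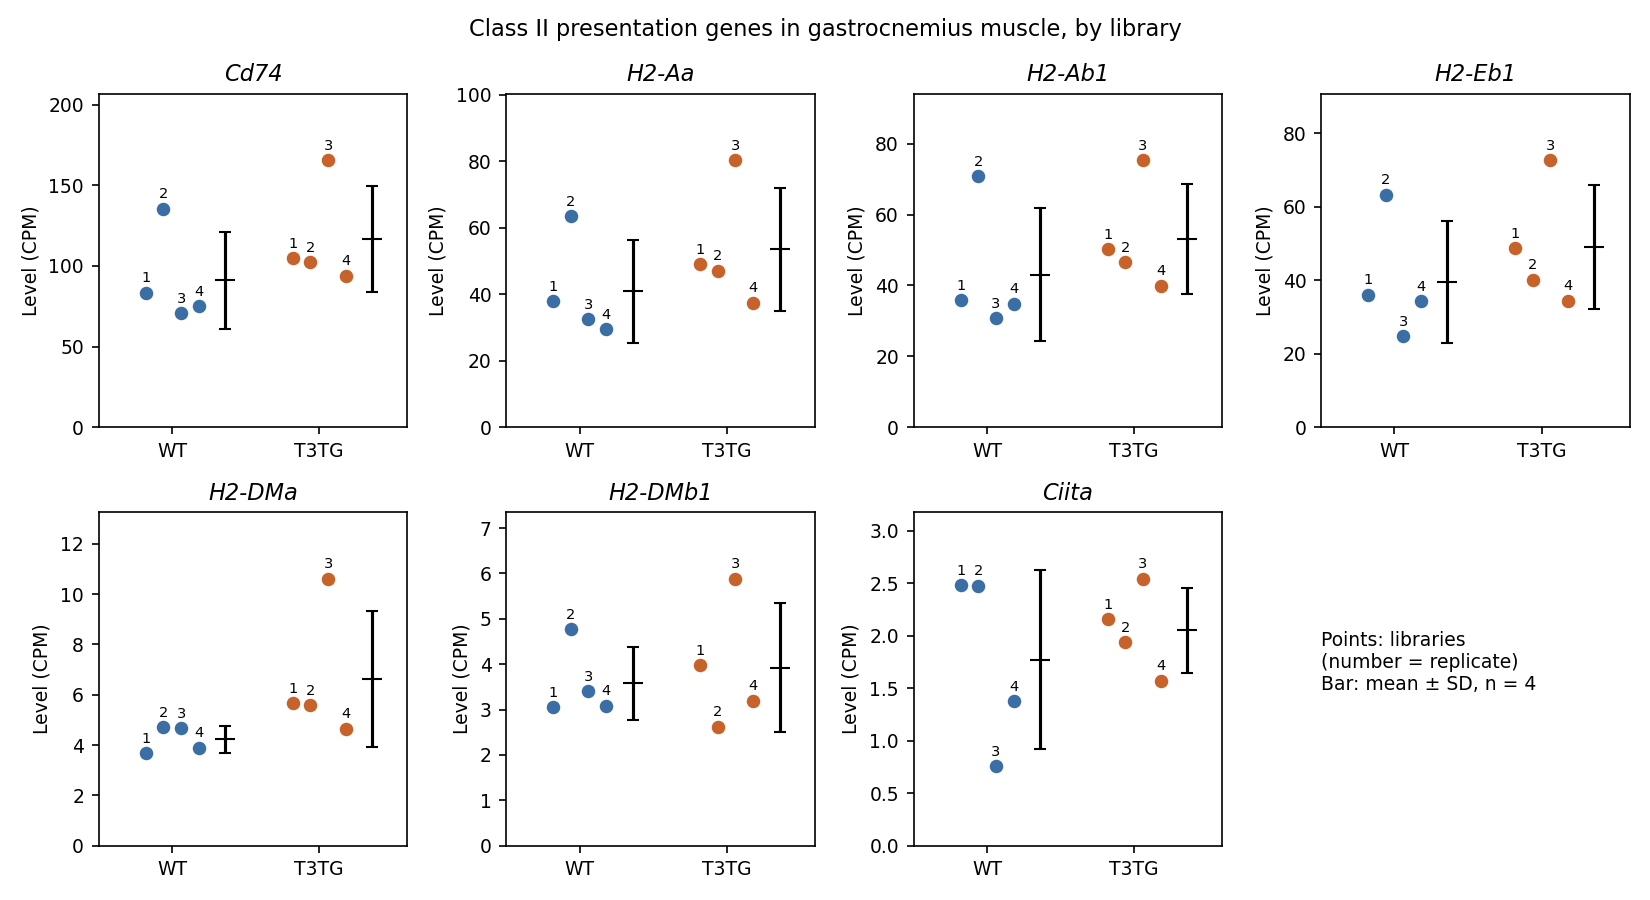
Level of each of the 7 genes in CPM (scaled counts) in the 4 WT and 4 T3TG libraries. Points are libraries numbered by replicate, and bars are mean ± SD (n = 4). T3TG replicate 3 is the highest library for 7 of 7 genes, and WT replicate 2 is among the top 2 for 5.

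**Figure D2:**
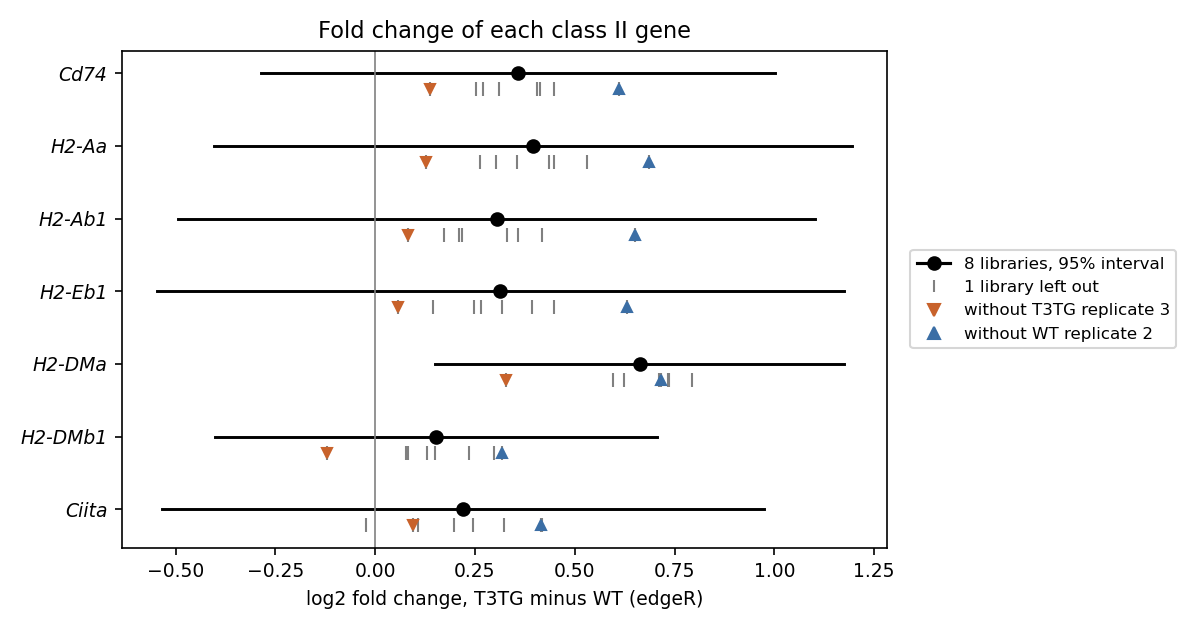
Log2 fold change of each gene, T3TG minus WT, by edgeR. Black points and lines give the value from 8 libraries with its 95% interval, and marks below give the value with 1 library left out. Only the interval of H2-DMa, 0.15 to 1.17 before adjustment, lies above 0, and the value without T3TG replicate 3 is the lowest for 6 of 7 genes.

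Per kilobase of principal transcript, the levels over the 8 libraries fell into 3 tiers. Cd74 stood at 73.7 ± 22.8 CPM per kb (SD, n = 8), H2-Aa at 41.8 ± 15.3, H2-Ab1 at 39.6 ± 13.8 and H2-Eb1 at 26.5 ± 9.74. The editor subunits followed at 3.28 ± 1.33 for H2-DMa and 2.67 ± 0.774 for H2-DMb1, and Ciita at 0.318 ± 0.106. Cd74 was above H2-Aa, H2-Ab1 above H2-Eb1, H2-Eb1 above H2-DMa and H2-DMb1 above Ciita in 8 of 8 libraries. H2-Aa was above H2-Ab1 in 6 of 8 and H2-DMa above H2-DMb1 in 7 of 8, and the means of these 2 pairs differ by less than their spread. The order within tiers depends on the length used. Per kilobase of all annotated exons, H2-Aa stood at 12.4 CPM per kb against 18.7 for H2-Ab1 and 22.8 for H2-Eb1, and H2-DMa stood at 1.58 against 2.23 for H2-DMb1.

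The 4 abundant genes varied between libraries of 1 group far more than other genes of like level. The SD of log2 CPM within groups was 0.40 for Cd74, 0.47 for H2-Aa, 0.47 for H2-Ab1 and 0.51 for H2-Eb1. The median SD of tested genes within 1.5-fold of their level was 0.12 to 0.13, and 97.7% to 98.7% of those genes had a smaller SD. H2-DMa (0.36), H2-DMb1 (0.37) and Ciita (0.46) stood nearer to genes of their own low levels, where 76.4% to 84.5% had a smaller SD.

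The spread was shared. Averaged over the 7 genes, log2 CPM relative to the WT mean was -0.03, 0.55, -0.32 and -0.20 in WT replicates 1 to 4 and 0.30, 0.14, 0.88 and -0.02 in T3TG replicates 1 to 4. T3TG replicate 3 was the highest library for 7 of 7 genes, WT replicate 3 the lowest for 4, and WT replicate 4 among the lowest 2 for 6. The 6 pairs among Cd74, H2-Aa, H2-Ab1 and H2-Eb1 had Pearson r from 0.936 to 0.984 and Spearman rho from 0.952 to 1.0 over the 8 libraries. Their exact permutation p adjusted over the 21 pairs of members ran from 0.000521 to 0.00148 for r and from 0.00104 to 0.00399 for rho. Without the 2 libraries farthest from the median, r was 0.773 to 0.979, and in the 6 libraries other than T3TG replicates 2 and 3 it was 0.905 to 0.985. Deviations from the group means gave r of 0.929 to 0.986, so the agreement does not rest on the difference between WT and T3TG. The 15 pairs with H2-DMa, H2-DMb1 or Ciita had r from 0.338 to 0.820, and 10 of them passed by r and 2 by rho. Their r ran from -0.109 to 0.837 without the 2 farthest libraries and from -0.0169 to 0.911 in the 6 libraries. H2-DMa with H2-DMb1 went from 0.709 to 0.0151 without the 2 farthest and was 0.625 in the 6 libraries. That relation therefore depends on which libraries are kept.

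The 10 genes whose profile was most like the mean of the 7 were sought among 13104 genes of at least 1 CPM, by Pearson r over the 8 libraries and as a description. The closest was Ptprc (r = 0.985), which encodes CD45, the phosphatase on nearly all white blood cells. It was followed by Sbno2 (0.965), Casp1 (0.965), which encodes the protease caspase-1, Edem1 (0.962), Mpeg1 (0.960), a pore-forming protein of macrophages, and Slc39a10 (0.954), a zinc transporter. Then came Ctss (0.951), the cathepsin S that trims the invariant chain, Tmem106a (0.948), Ly86 (0.947), a partner of the receptor RP105, and Chic2 (0.946). The log2 fold changes of Ptprc and Ctss were 0.56 (SE 0.40) and 0.56 (SE 0.24), and neither passed the test.

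**Figure D3:**
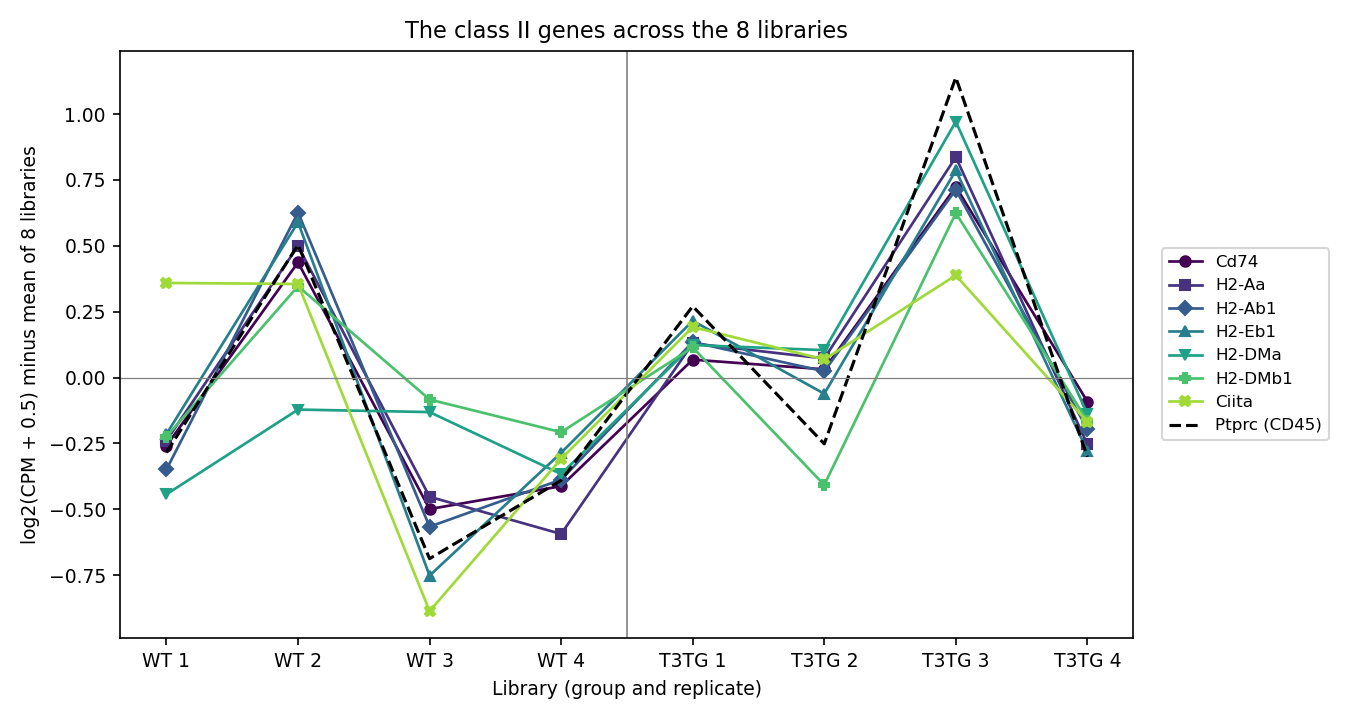
Profile of the 7 genes and of Ptprc over the 8 libraries, as log2(CPM + 0.5) minus the mean of each gene. The lines of Cd74, H2-Aa, H2-Ab1, H2-Eb1 and Ptprc run close together, with peaks at WT replicate 2 and T3TG replicate 3, while H2-DMa has no peak at WT replicate 2.

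Ratios of counts within a library need no library size, and 10 were compared between the groups. The count ratios of Cd74, H2-Aa and H2-Eb1 to H2-Ab1 were nearly constant over the libraries. Cd74 held 2.16 counts for each of H2-Ab1 in WT and 2.2 in T3TG (geometric means, 1.91 to 2.35 over all 8 libraries), a log2 difference of 0.03 (exact permutation p = 0.771). H2-Aa held 0.846 to 1.07 counts and H2-Eb1 0.803 to 1.01 counts for each of H2-Ab1, with log2 differences of 0.06 and -0.007 (exact permutation p = 0.514 and 0.971). The level of H2-Ab1 itself varied 2.45-fold over the same libraries.

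The ratio of the editor subunits, H2-DMa to H2-DMb1, was 1.20, 0.987, 1.37 and 1.26 in WT and 1.42, 2.12, 1.80 and 1.45 in T3TG. The groups did not overlap, and the log2 difference was 0.49. It was 0.26 without T3TG replicates 2 and 3, which held the highest 2 ratios (exact permutation p = 0.2, adjusted 1.0). With all 8 libraries the exact permutation p was 0.0286, the smallest the design can give, and 0.143 after adjustment over the 10 ratios, which does not pass. H2-DMb1 to H2-DMb2 was 9.91 to 21.8 in WT and 7.15 to 9.73 in T3TG, again without overlap and with the same adjusted p of 0.143, but on 2 to 20 counts of H2-DMb2. H2-DMa to H2-Ab1 differed by 0.23 on the log2 scale (exact permutation p = 0.429).

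Set against white blood cell genes, H2-Ab1 held 9.70, 10.5, 11.5 and 10.3 counts for each count of Ptprc in WT and 8.91, 12.3, 7.04 and 10.9 in T3TG. The WT ratios were tight although H2-Ab1 varied widely among the same libraries, and the T3TG ratios lay on both sides of them (log2 difference -0.13, exact permutation p = 0.571). The ratio to Csf1r, the receptor for the macrophage growth factor, was 1.72 to 3.35 in WT and 1.49 to 2.28 in T3TG, with WT replicate 2 the highest (log2 difference -0.17, exact permutation p = 0.571). The ratio to the class I heavy chain H2-K1 was 0.276 to 0.380 in WT and 0.268 to 0.508 in T3TG (log2 difference 0.18, exact permutation p = 0.514). The ratio to the B cell receptor chain Cd79b rested on 1 to 28 counts of Cd79b and differed by -1.25 on the log2 scale (exact permutation p = 0.143).

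**Figure D4:**
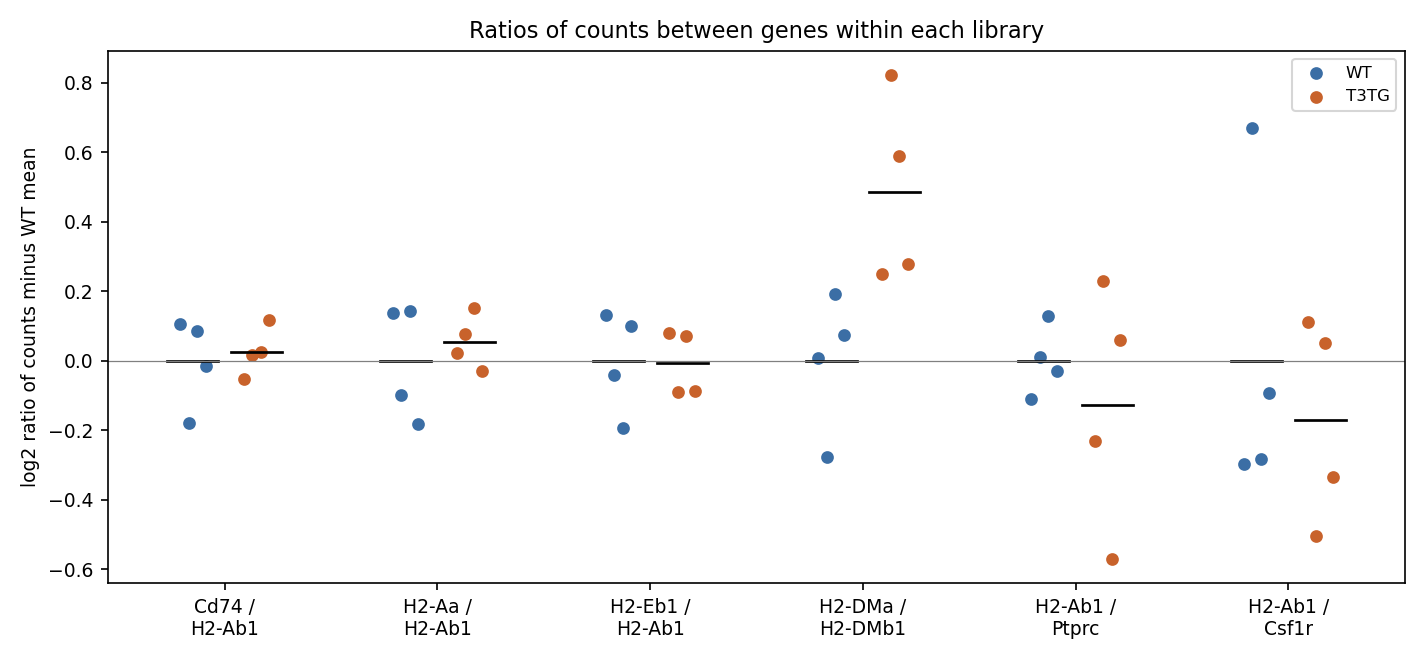
Log2 ratio of counts between 2 genes within each library, minus the WT mean, for 6 of the 10 ratios. Points are libraries and lines are group means (n = 4 each). The ratios among Cd74, H2-Aa, H2-Eb1 and H2-Ab1 lie within 0.2 of the WT mean, and those of H2-DMa to H2-DMb1 do not overlap between the groups.

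The other genes of the pathway are given by list. Upstream of Ciita, 9 genes of the interferon gamma receptor pathway were tested, of which 4 were higher and 5 lower in T3TG, and the median was -0.05 on the log2 scale. At an unadjusted p under 0.05 there were 0 in either direction. Jak1, the most abundant, is a kinase of the receptor and had a log2 fold change of 0.12 (SE 0.09). Irf1, a transcription factor that acts on the Ciita promoter, had 0.46 (SE 0.22), and the receptor chain Ifngr1 had 0.31 (SE 0.16). Ifng itself had 0 to 2 counts a library and was below the filter.

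Of 15 tested genes induced by interferon gamma, 10 were higher and 5 lower, with a median of 0.24. At an unadjusted p under 0.05, 1 was higher and 1 lower, against 5.88% and 2.45% of all genes. Gbp4, a guanylate-binding protein, had a log2 fold change of 0.60 (SE 0.23, adjusted p = 0.464 by edgeR), while Igtp, an immunity-related GTPase, had -0.41 (SE 0.19, adjusted p = 0.585). Irgm2, the most abundant, had -0.05 (SE 0.20).

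The 12 genes of the complex on the class II promoters were split into 5 higher and 7 lower, and their median was -0.04 with 0 at an unadjusted p under 0.05. Nfya, a subunit of the factor that binds the Y box, had 0.23 (SE 0.15), the acetyltransferase gene Crebbp 0.15 (SE 0.10), and the acetyltransferase gene Kat2b, the most abundant, -0.10 (SE 0.08). Rfx5, a subunit of the factor on the X box, stood at 10.3 ± 0.924 CPM in WT libraries and at 9.14 ± 1.69 CPM in T3TG libraries (SD, n = 4 each).

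The 9 genes of endosomal processing were proteases that cut the invariant chain and the antigens, the reductase Ifi30 and the protease inhibitor Cst3. All 9 were higher in T3TG in fitted level, with a median of 0.23 and with Cst3 at only 0.02 (SE 0.08). At an unadjusted p under 0.05, 4 of 9 were higher, against 5.88% of all genes. The 4 were Ctss, the asparagine endopeptidase Lgmn with 0.32 (SE 0.11, adjusted p = 0.373 by edgeR), cathepsin Z with 0.23 (SE 0.09, adjusted p = 0.470), and the thiol reductase Ifi30 with 0.50 (SE 0.20, adjusted p = 0.483). The WT libraries held 8.92 ± 2.79 CPM of Ctss and the T3TG libraries 13 ± 4.1 CPM (SD, n = 4 each, adjusted p = 0.569 by edgeR). Ctsd, the most abundant, stood at 664 ± 15 and 682 ± 24.0 CPM. None of the 9 passed the adjusted test, for which 0.0711% of all genes were called.

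Of 12 class I presentation genes, 11 were higher, with a median of 0.23. At an unadjusted p under 0.05, 2 were higher, against 5.88% of all genes. The 2 were the peptide loading genes Pdia3, with 0.32 (SE 0.10, adjusted p = 0.305 by edgeR), and Tapbp, with 0.22 (SE 0.08, adjusted p = 0.443). The most abundant, the class I heavy chain H2-D1, had 0.29 (SE 0.14). Of 6 tested costimulators and coinhibitors, which act beside class II on T cells, 4 were higher and 2 lower, with 0 at an unadjusted p under 0.05. Cd80 had 0.53 (SE 0.48), Cd274, which encodes PD-L1, had 0.32 (SE 0.27), and Cd86 had 0.37 (SE 0.44). The editor genes of B cells and thymus, H2-Oa and H2-Ob, the chain H2-Eb2 and H2-DMb2 were all below the filter.

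White blood cell markers had higher fitted levels in T3TG beside the class II genes. Of 12 pan-leukocyte markers, 12 were higher in T3TG with a median log2 fold change of 0.52. At an unadjusted p under 0.05, 2 were higher, against 5.88% of all genes, and 0 passed after adjustment. Laptm5, a lysosomal protein of blood cells, had 0.60 (SE 0.18, adjusted p = 0.327 by edgeR) and Arhgdib 0.37 (SE 0.15, adjusted p = 0.513). Their summed level was 45.5 to 79.0 CPM in WT libraries and 55.8 to 112 CPM in T3TG libraries, overlapping as the class II genes do. None of these markers was at 0 in all libraries.

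Of 15 tested macrophage markers, 15 were higher, with a median of 0.60, 12 at an unadjusted p under 0.05 (5.88% of all genes) and 0 after adjustment. Their summed level was 199 to 247 CPM in WT libraries and 264 to 472 CPM in T3TG libraries, without overlap. Mrc1, the mannose receptor, had 0.60 (SE 0.11, adjusted p = 0.0696 by edgeR), and Csf1r had 0.53 (SE 0.14, adjusted p = 0.194). Lyz2, the most abundant, had 0.51 (SE 0.24). WT replicate 2, the second highest class II library for 5 of 7 genes, stood at 247 CPM in this sum, below every T3TG library. Of 4 tested monocyte markers, 4 were higher (summed 28.5 to 34.2 CPM in WT and 38.9 to 69.5 CPM in T3TG), with the lowest p for Vcan at 0.62 (SE 0.14, adjusted p = 0.110 by edgeR) and F13a1 at 0.59 (SE 0.17, adjusted p = 0.285). Ccr2, a chemokine receptor of monocytes, had a larger and less certain 1.07 (SE 0.61, adjusted p = 0.704).

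Of 7 tested dendritic cell markers, 6 were higher and 1 lower with a median of 0.18, and the summed levels overlapped (47.0 to 58.0 CPM in WT, 54.1 to 61.6 CPM in T3TG). Cd209a, a lectin of monocyte-derived dendritic cells, had 0.77 (SE 0.27, adjusted p = 0.426 by edgeR), Fscn1, an actin-bundling protein, 0.18 (SE 0.13), and Cadm1, the most abundant, 0.02 (SE 0.15). The listed genes Clec9a and Zbtb46 had -0.05 (SE 0.42) and 0.02 (SE 0.12). Flt3, Itgax, Xcr1, Batf3 and Ccr7 were below the filter, with 0 to 30 counts a library. Most of the summed level came from Cadm1, Fscn1 and Zbtb46, at 15.2, 13.5 and 10.4 CPM in WT libraries. Whether dendritic cells were the source of these 3 transcripts was not tested. Of 12 B cell markers in the table, 2 were tested, Fcer2a and Bank1, with 0.02 (SE 0.13) and 0.42 (SE 0.55). Ms4a1, a defining B cell gene that encodes CD20, was near 0, at 0.0571 ± 0.0856 CPM in WT libraries and at 0.551 ± 0.556 CPM in T3TG libraries (SD, n = 4 each). Of 4 tested T cell markers, 3 were higher and 1 lower, with Thy1 at 0.46 (SE 0.17, adjusted p = 0.437 by edgeR). The T cell receptor genes Cd3e, Cd3d and Cd3g were below the filter and went in both directions. They stood at 0.131, 0.129 and 0.361 CPM in WT libraries and at 0.145, 0.322 and 0.17 CPM in T3TG libraries. Whether T cells were the source of Thy1 was not tested.

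Of 10 endothelial markers 9 were higher and 1 lower (summed 357 to 464 CPM in WT and 467 to 554 CPM in T3TG, without overlap). At an unadjusted p under 0.05, 4 were higher, against 5.88% of all genes, and 0 passed after adjustment. Eng, the coreceptor endoglin, had 0.47 (SE 0.09, adjusted p = 0.0700 by edgeR), the receptor gene Tie1 0.40 (SE 0.10, adjusted p = 0.159) and Pecam1, the most abundant, 0.34 (SE 0.13, adjusted p = 0.502). Of 12 skeletal muscle markers 1 was higher and 11 lower, with a median of -0.15 and 0 at an unadjusted p under 0.05. Their summed level overlapped, at 140000 to 153000 CPM in WT and 121000 to 155000 CPM in T3TG. Only T3TG replicates 1 and 2 lay below the WT libraries, at 121000 and 125000 CPM. The calcium buffer gene Pvalb had -0.22 (SE 0.11), the troponin gene Tnni2 -0.17 (SE 0.09) and Acta1 -0.009 (SE 0.11). The part that the number of these cells has in the class II levels was not tested.

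Library by library, Cd74 followed the pan-leukocyte markers most closely of 8 marker lists. Pearson r was 0.965 (exact permutation p = 0.000149, 0.00119 after adjustment over the 8 lists) and Spearman rho 0.952 (exact permutation p = 0.00114, 0.00912 after adjustment) over the 8 libraries. Without WT replicate 3 and T3TG replicate 3, the 2 farthest from the median of Cd74, r was 0.909, and in the 6 libraries other than T3TG replicates 2 and 3 it was 0.940. With the macrophage markers r was 0.768 (rho 0.762, adjusted exact permutation p = 0.0628 and 0.0981). It was 0.265 without the 2 farthest libraries and 0.461 in the 6 libraries. With the monocyte markers r was 0.837 (adjusted exact permutation p = 0.0351) and rho was 0.619 (adjusted p = 0.184). There r was 0.484 without the 2 farthest libraries and 0.667 in the 6 libraries. Both relations therefore depend on which libraries are kept. Leaving out the 2 farthest also narrows the range of Cd74, which can by itself lower r. With the dendritic cell markers r was 0.763 (rho 0.833, adjusted exact permutation p = 0.0628 and 0.0616). It was 0.750 without the 2 farthest libraries and 0.847 in the 6 libraries. With the 2 B cell markers r was 0.712 and with the 4 T cell markers 0.473 (adjusted exact permutation p = 0.0746 and 0.313), or 0.649 and 0.814 without the 2 farthest libraries. With the endothelial and muscle markers r was 0.160 and 0.063 (adjusted exact permutation p = 0.816 and 0.884), or -0.465 and -0.154 without them.

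**Figure D5:**
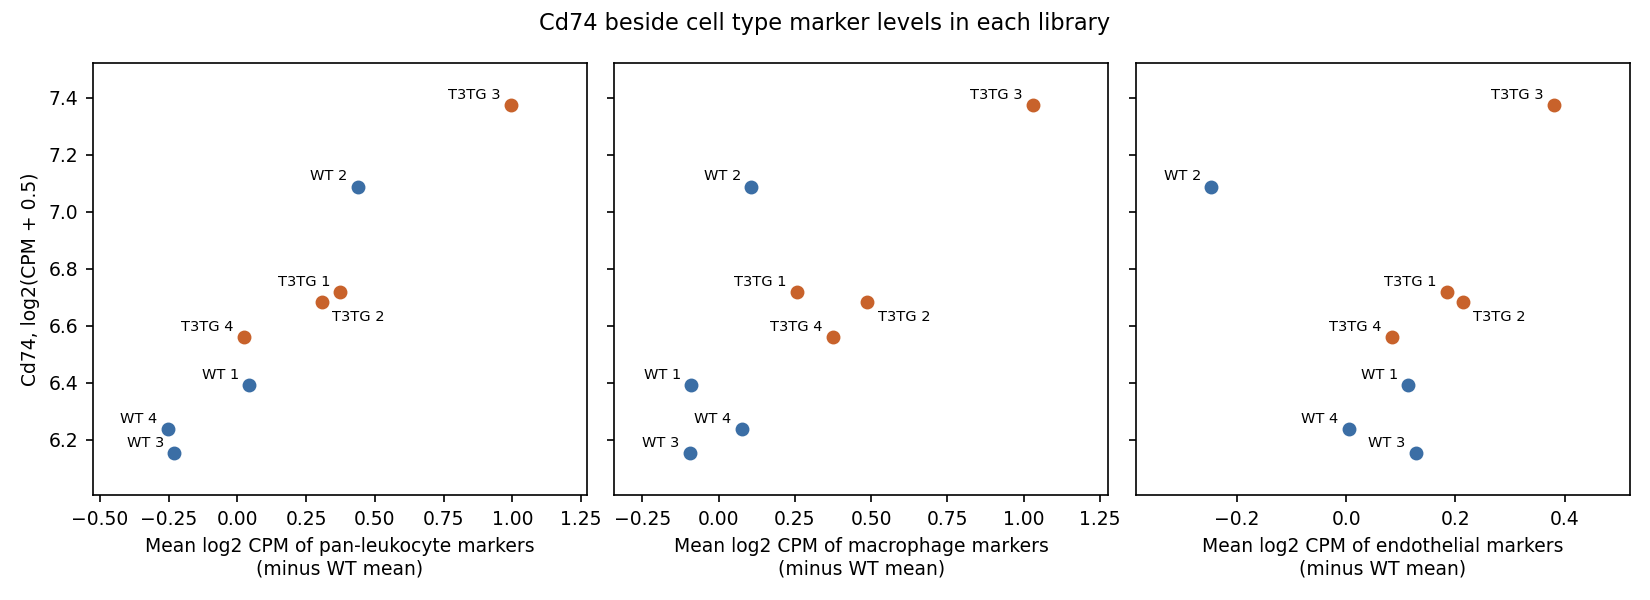
Cd74 in each library, as log2(CPM + 0.5), against the mean log2 CPM of the pan-leukocyte, macrophage and endothelial markers minus the WT mean. Points are libraries. Cd74 climbs with the pan-leukocyte markers across both groups (r = 0.965), while in the macrophage panel WT replicate 2 stands apart from the other WT libraries and in the endothelial panel r is 0.160.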

How the data were processed

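Polyadenylated RNA of 8 gastrocnemius libraries was sequenced as read pairs, per the labels' protocols. Values are raw counts for each gene symbol, as the authors deposited them in 1 table, and HISAT2 2.2.1, HTSeq 0.9.1, DESeq2 1.34.0 and mm10 are named in the submitters' processing notes. The table has 35976 rows, of which 27 hold dates in place of symbols (0.0885% to 0.0961% of counts) and were left out. Genes were filtered with filterByExpr, scaled by TMM and tested with edgeR 4.0.16 (R 4.3.3; quasi-likelihood, robust, group as the only term, adjusted over 14064 genes). The SE is the log2 fold change divided by the root of F. Alternatives used limma 3.58.1 (voom) and DESeq2 1.42.0. Libraries differed beyond sampling noise (mean chi-square per gene of at least 9.8 for a pair, where noise gives 1). Scripts were tested on simulated data. The 7 genes, the lists and the alternatives were chosen with earlier results of these data known. Named genes are the members, Sirt3, the most abundant and the 2 lowest-p tested genes of each list, and the 10 most alike genes. Cd86, Rfx5, Ifi30, Cst3, Ccr2, Clec9a, Zbtb46, Brd2, Dexi and genes below the filter were named after their values were seen. Ighm, Ighd, Trac and H2-Ea were not used here.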

Additional observations from a re-analysis of the deposited data

Results flagged for a closer look

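Among the 34 groups of 4 libraries tested for a library far from the others, 2 were flagged, and chance flags about 1 in 20. Cd74 in T3TG was flagged because T3TG replicate 3, at 165.5 CPM, stood apart from the other 3 T3TG libraries (93.8 to 104.8 CPM). Its gap to the nearest of them was 0.847 of the range of the group, above the limit for 4 libraries. H2-Ab1 in WT was flagged because WT replicate 2, at 70.9 CPM, stood apart from 30.8 to 35.8 CPM, with a gap of 0.874 of the range.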

How the results depend on the processing

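The upper 95% bound of the fold was 1.63 to 2.29 over the members, and 1 of 7 lower bounds was above 1, so 4 libraries a group limit what could be detected. The count of members called was 0 under all 18 alternatives, and the median log2 fold change stayed above 0, from 0.08 to 0.63. The number of genes called over all genes was 10, and it was 107 without a filter, 105 with DESeq2, 2 with voom, 0 without T3TG replicates 2 and 3 (776 at an unadjusted p under 0.05) and 2 with a term for first title number 6. With 1 library left out it was 0 to 37. Between libraries of different groups with the same first title number, deviations from the group means had r of -0.0978 to 0.223. This cannot decide whether the numbers pair the libraries. T3TG replicates 2 to 4 share number 6, so subtracting the group mean removes much of what they have in common. Among the WT libraries, only replicate 4 has number 6, and numbers 1 and 3 occur in no T3TG library. The difference between the groups is therefore partly mixed with any difference between these numbers. A block on the first title numbers gave 4 calls over all genes, 0 members called and 0.62 for H2-DMa (adjusted p = 0.997 by edgeR). Reversed values without T3TG replicates 2 and 3 were log2 ratios of -0.00397 for H2-Aa to H2-Ab1 and -0.0243 for H2-Ab1 to H2-K1. With 1 library left out, the log2 fold change ran from -0.122 (without T3TG replicate 3) to 0.318 for H2-DMb1 and from -0.0231 (without WT replicate 3) to 0.417 for Ciita. In the same way, the log2 ratio to H2-Ab1 ran from -0.0336 to 0.0616 for Cd74, from -0.0052 to 0.103 for H2-Aa and from -0.0709 to 0.0376 for H2-Eb1, and that of H2-Ab1 from -0.249 to 0.0187 to Ptprc and from -0.268 to 0.0533 to Csf1r. The cause was not tested.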
